A study of Drosophila melanogaster with 2 samples.

Results

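Densely clustered bound regions are places where the tagged transcription factor Arrowhead (Awh) was detected many times within a short stretch of chromosome. They were chosen by the summit positions of the strict peak list made from both replicates of a chromatin immunoprecipitation sequencing (ChIP-seq) experiment. Overlapping peaks were first merged, which gave 4781 regions on the arms of chromosomes 2 and 3, chromosome 4 and X. A region was kept when at least 5 other summits lay within 20 kb on either side, and kept regions less than 20 kb apart were chained into clusters. This left 1057 regions, of which 28 formed 1 cluster within 60 kb of the Awh gene and were set aside. The remaining 1029 regions, 21.5% of the list, formed 179 clusters and are described here against the 3724 regions outside clusters. Their number and density follow from the rule and were not tested.

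All samples were whole Drosophila melanogaster embryos aged 0 to 24 h from transgenic flies whose Awh protein carries an enhanced green fluorescent tag. An antibody against this tag was used, per the labels, while another label field names Awh as the antibody target. There were 2 biological replicates of this 1 group, taken from separate biosamples. Sexes, tissues and developmental stages were therefore mixed, the embryos carried the tagged transgene, and no untagged or input sample was analysed here. The lists hold a signal for each peak, which is the authors' value, but give no read counts, and the depth of sequencing is therefore unknown.

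Awh is a LIM-homeodomain factor, a class of DNA-binding proteins whose homeodomain prefers sites with a TAAT core and whose LIM domains bind partner proteins. In Drosophila it is known for the formation of imaginal cells that later build adult tissue, the histoblast nests of the abdomen and the imaginal ring of the salivary gland. Developmental regulatory genes of the fly often lie in long non-coding stretches with many separate enhancers, and transcription factors can bind at several of these around 1 gene.

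The sequence around a summit shows where the signal peaked, not which bases the tagged protein bound. Below are 61 bases of the plus strand centred on the strongest summit of 6 of the 8 largest clusters, with every TAAT and its reverse complement ATTA in capitals. Of the other 2 clusters, 1 has its strongest summit in an annotated exon.
noc cluster (dm6, chr2L:14502758-14502818): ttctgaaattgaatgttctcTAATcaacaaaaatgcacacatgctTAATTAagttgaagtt
elB cluster (dm6, chr2L:14414438-14414498): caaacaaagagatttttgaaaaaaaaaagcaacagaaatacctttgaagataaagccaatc
hng3 and emc cluster (dm6, chr3L:781314-781374): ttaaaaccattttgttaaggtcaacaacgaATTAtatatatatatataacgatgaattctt
E(spl) complex, at gro (dm6, chr3R:26042475-26042535): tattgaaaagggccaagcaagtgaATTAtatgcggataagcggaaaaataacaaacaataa
scyl to CG6163 cluster (dm6, chr3L:11378685-11378745): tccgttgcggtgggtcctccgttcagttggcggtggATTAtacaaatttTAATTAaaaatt
CG43245 cluster (dm6, chr3L:10776519-10776579): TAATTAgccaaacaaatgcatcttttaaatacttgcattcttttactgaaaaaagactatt
The summits of the noc, scyl to CG6163 and CG43245 clusters had TAATTA, which holds the core on both strands, within these 61 bases. The strongest summit of the elB cluster had no TAAT or ATTA there, although its signal of 343 was the highest of the 6 clusters after that of the hng3 and emc cluster.

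The same clusters also held regions with TAATTA within 20 bp of the summit, and 41 bases around the strongest such summit of each cluster are given next, in the same notation. In the noc cluster this was the summit already shown, which was also the strongest of its kind among all clustered regions outside annotated exons on the chromosomes whose sequence is shown here.
elB cluster, 6989 bp downstream of the ppk start (dm6, chr2L:14374163-14374203): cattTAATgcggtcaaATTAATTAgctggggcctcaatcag
hng3 promoter (dm6, chr3L:738902-738942): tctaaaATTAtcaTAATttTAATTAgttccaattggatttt
scyl to CG6163 cluster, 3139 bp upstream of CG7573 (dm6, chr3L:11308588-11308628): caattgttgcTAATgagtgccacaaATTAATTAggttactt
CG43245 cluster, 11541 bp downstream of the CG43245 start (dm6, chr3L:10783446-10783486): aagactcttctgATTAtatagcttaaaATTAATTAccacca
E(spl) complex, 1762 bp upstream of Kaz-m1 (dm6, chr3R:26012939-26012979): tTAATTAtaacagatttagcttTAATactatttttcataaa
These summits covered a wide range of signal, which was 312 at the elB cluster, 258 at the hng3 promoter, 217 near CG7573, 120 near CG43245 and 68.4 near Kaz-m1.

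Most clusters were small and a few were long. The median cluster had 6 regions and the largest had 32. There were 30 clusters of a single kept region, whose neighbours did not themselves pass the rule. Another 43 clusters had 2 to 4 regions, 81 had 5 to 9 and 25 had 10 or more, and those 25 together held 348 of the 1029 regions. Clusters of more than 1 region spanned 18.1 kb at the median and at most 140 kb. Their spans summed to 3243 kb, or 2.42% of the 6 chromosomes, with 0.311 regions per kb inside them and 0.0357 per kb on the 6 chromosomes as a whole. Neighbouring clustered summits were 2507 bp apart at the median (quartiles 1238 and 5392 bp), and 171 of 850 such gaps were under 1000 bp.

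The clusters were spread over all large arms. On 3L, 282 of 1118 regions were clustered (25.2%), on X 167 of 741 (22.5%), on 2R 198 of 889 (22.3%), on 2L 180 of 900 and on 3R 202 of 1127 (17.9%). None of the 6 regions on chromosome 4 was clustered. Of the 8 largest clusters, 4 lay on 3L.

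Clustered regions lay away from promoters more often than the rest. A promoter was taken as the 500 bp on either side of a protein-coding transcript start. Of the 1029 clustered regions 207 had their summit at a promoter, a share of 20.1% (95% Wilson interval 17.8 to 22.7%), against 1329 of 3724 regions outside clusters, 35.7% (34.2 to 37.2%), and 32.1% of all regions. Intergenic summits made up 342 of the clustered regions, 33.2% (30.4 to 36.2%), and 678 of those outside, 18.2% (17.0 to 19.5%). Introns held 464 clustered summits, 45.1% (42.1 to 48.1%), and 43.2% (41.6 to 44.7%) of those outside, so these intervals overlap. Coding exons held 7 clustered summits, against 49 outside, and untranslated regions held 9 clustered summits, against 61 outside. The distance to the nearest protein-coding start was 2953 bp at the median for clustered regions and 1294 bp for regions outside clusters.

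These intervals cover the number of regions only. Neighbouring regions share a locus and are not replicates, and with 1 group of 2 samples the differences in share were not tested.

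The 8 clusters with most regions had a higher intergenic share than the other clusters. In these 8, 127 of 163 summits were intergenic (77.9%), 19 were in introns (11.7%) and 17 at promoters (10.4%), and the median distance to a start was 7792 bp. Of the 8, the sbb cluster had no intergenic summit. In the other 171 clusters, 215 of 866 summits were intergenic (24.8%), 445 in introns (51.4%) and 190 at promoters (21.9%). Intergenic here means outside every protein-coding gene. Of the 342 intergenic clustered summits, 56 lay inside an annotated non-coding RNA gene (16.4%), against 71 of 678 outside clusters (10.5%).

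**Figure D1:**
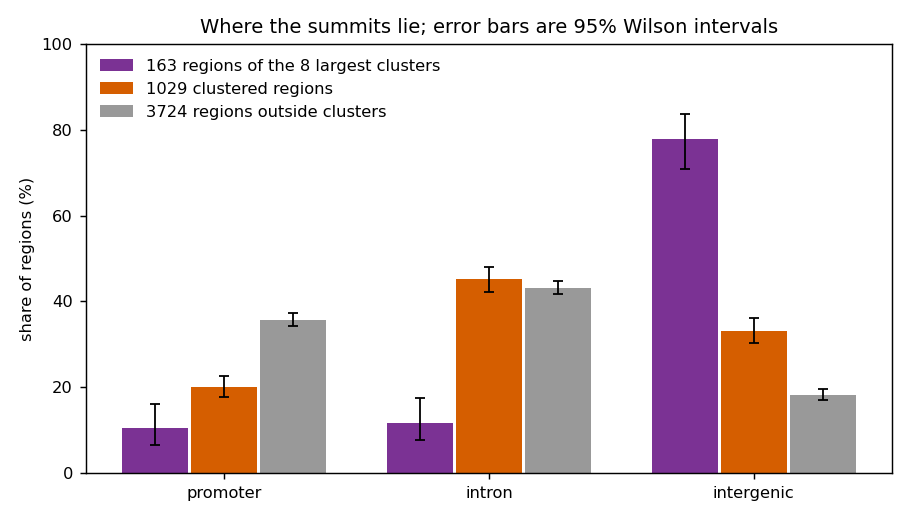
Share of summits at promoters, in introns and between genes (percent of regions, error bars are 95% Wilson intervals) for the 163 regions of the 8 largest clusters, all 1029 clustered regions and the 3724 regions outside clusters. The intergenic share was 77.9% in the 8 largest clusters, 33.2% in all clusters and 18.2% outside, while the promoter share was 10.4%, 20.1% and 35.7%.

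Clustered regions had about the same signal as the rest. Their median signal was 107 (quartiles 81.4 and 158), against 105 (81.4 and 154) outside clusters. In the replicates' own candidate lists, where the strongest peak overlapping each region was read, the clustered regions had medians of 52.5 in replicate 1 and 54.1 in replicate 2, against 52.5 and 53.1 outside. The joint signal was close to the sum of both replicates' signals, with a median ratio of 0.995 over 4741 regions. Neither replicate set the clustered regions apart by their level.

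Single regions varied between replicates much more than the groups did. Over 1023 clustered regions the log2 ratio (replicate 1 over replicate 2) was 0.02 at the median with an SD of 0.51, against 0.02 with an SD of 0.48 outside clusters. Of the clustered regions 464 passed the threshold in both replicates' own lists, 45.1% (42.1 to 48.1%), against 42.9% (41.4 to 44.5%) outside clusters and 43.3% of all regions. Another 118 passed in replicate 1 only, 183 in replicate 2 only and 264 in neither, which is 25.7% of the clustered regions and 27.1% of those outside. Those 264 regions were in the strict joint list although they passed in neither own list.

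**Figure D2:**
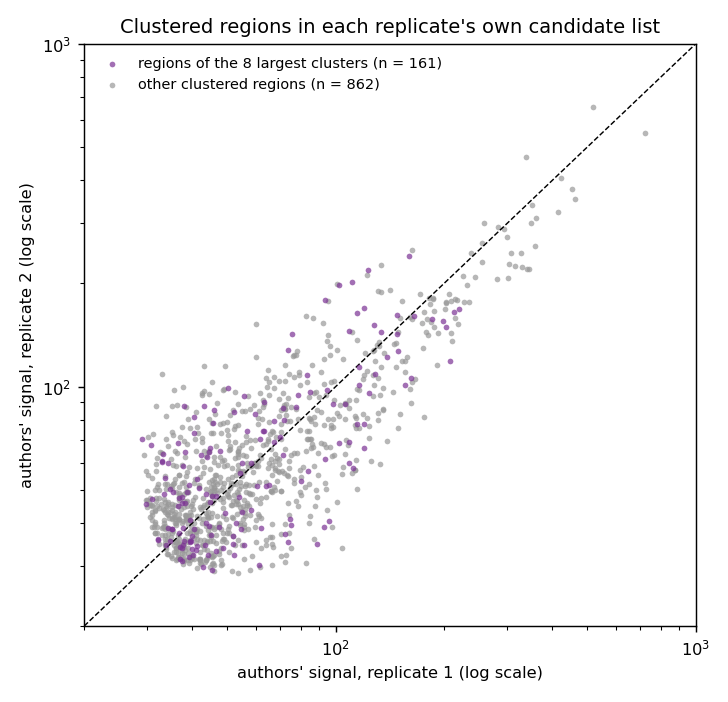
Authors' signal in replicate 1 (horizontal, log scale) and replicate 2 (vertical, log scale) for those clustered regions that both candidate lists cover, with the 161 regions of the 8 largest clusters in purple and the other 862 in grey. The dashed line marks equal signals. The points scatter on both sides of the line with an SD of 0.51 on the log2 scale of the ratio, and the 8 largest clusters do not stand apart.

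Among intergenic regions alone the clustered ones were more often found in both replicates. Of the 342 clustered intergenic regions 48.8% (43.6 to 54.1%) were in both own lists, against 36.0% (32.5 to 39.7%) of the 678 outside, and their median signals were 109 and 101. For introns the shares were 40.7% (36.4 to 45.3%) in clusters and 41.2% (38.8 to 43.6%) outside. For promoters they were 49.8% (43.0 to 56.5%) in clusters and 50.3% (47.7 to 53.0%) outside.

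Of the 17 pairs of clusters less than 50 kb apart, the longest lay at elB and noc, 2 neighbouring paralogs that encode zinc finger proteins of the NET family, which act in the development of trachea, legs and eyes. The noc cluster on 2L (14458725 to 14561055, 102 kb) held 25 regions, of which 24 were intergenic and 1 at the noc promoter. The elB cluster on 2L (14361930 to 14433142, 71.2 kb) held 15 regions and lay 25.6 kb from it. The 2 clusters together held 40 regions over 199 kb.

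At noc the strongest region, 11929 bp downstream of the start, had a signal of 340, with 208 in replicate 1 and 119 in replicate 2. The next, 14342 bp downstream, had 273, with 128 and 151. The promoter region itself was weaker, at 157, with 63.3 in replicate 1 and 74.2 in replicate 2. There were 6 distal regions, with signals of 167 to 340, that were above the noc promoter in both replicates. In this cluster replicate 2 had the higher signal in 18 of 25 regions, with a median log2 ratio of replicate 1 to replicate 2 of -0.26.

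At elB the strongest region had a signal of 343, with 123 in replicate 1 and 219 in replicate 2, and lay 2863 bp downstream of the start of Pburs, a subunit of the cuticle-hardening hormone bursicon. The region 6989 bp downstream of the start of ppk, a sodium channel subunit of sensory neurons, had 312, with 111 and 202. The region at the elB promoter had 77.6, with 34.3 in replicate 1 and 38.6 in replicate 2. Replicate 2 was the higher one in 13 of the 15 regions, and the replicate 1 list gave no cluster here by the same rule, while the replicate 2 list did. Of the 15 regions 6 were in both own lists and 6 in neither.

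The cluster at hng3 and emc on 3L (712302 to 837725, 125 kb) held 25 regions with a median signal of 124. Of these, 7 had hng3 as the nearest start, 6 CG13898, 4 CG13896 and 4 Sf3b3. The gene emc, 1 of 7 with a start in the span, encodes a helix-loop-helix protein without a basic domain that blocks proneural factors. The strongest region had 383, with 220 in replicate 1 and 169 in replicate 2, and lay 22707 bp downstream of the start of CG13898. A second, 12902 bp upstream of CG13896, had 361, with 202 and 149. Another, 7019 bp upstream of hng3, had 281, with 149 and 127. The emc promoter region itself had 124, with 40.4 in replicate 1 and 81.8 in replicate 2, and passed only in replicate 2. Of the 25 regions 13 were in both own lists and 4 in neither.

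Another large cluster lay over the Enhancer of split complex on 3R (25996613 to 26042505, 45.9 kb), a row of Notch target genes for basic helix-loop-helix repressors and Bearded-family proteins. Its 16 regions spread over 14 protein-coding genes with a start in the span, 11 of them E(spl) genes, and 7 were at promoters. It ended at gro, which encodes the corepressor that the E(spl) repressors recruit. The gro promoter region was by far the strongest, at 334, with 185 in replicate 1 and 158 in replicate 2. The next, 1803 bp upstream of E(spl)malpha-BFM, had 218, with 124 and 95.9. The median of the cluster was 79.7, 7 of its 16 regions were in neither own list, and the rule gave a cluster here in the replicate 2 list but not in the replicate 1 list.

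The cluster on 3L (601936 to 654270, 52.3 kb, 20 regions) spanned mir-ban, the gene of the bantam microRNA, which promotes growth and blocks cell death. The mir-ban hairpin (3L, 642208 to 642288) had 16 of the 20 summits on its left and 4 on its right, and the nearest summit was 543 bp from its middle. The strongest region had 293, with 148 in replicate 1 and 142 in replicate 2. The next had 278, with 134 and 144. Both had nearly equal signals in the replicates. Of the 20 regions 11 were in both own lists and 4 in neither.

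The largest cluster of all lay on 3L (11242959 to 11383041, 140 kb, 32 regions) from the scyl gene, whose product restrains growth when oxygen is low, to beyond CG6163. Of its summits 30 were intergenic. The strongest, 13830 bp upstream of CG6163, had 312, with 120 in replicate 1 and 170 in replicate 2. The next, 2738 bp downstream of the CG6168 start, had 280, with 162 and 106. The scyl promoter had 110, with 70.1 and 71.5. The median signal was 94.5, 11 regions were in both own lists and 10 in neither. A further cluster of 12 intergenic regions nearest to CG7560 and CG44362, with no protein-coding start in its 18.2 kb, began 21.3 kb beyond, and the 2 clusters together held 44 regions over 180 kb.

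The cluster at sbb had the highest median signal of the 8 largest. It tied at 14 regions with the cluster that holds Sema5c, and ties were ordered by summed signal. Its place among the 8 therefore rests in part on the signal compared here. The gene sbb, or brakeless, encodes a nuclear repressor protein that acts in wing veins and in axon targeting. Its cluster on 2R (18326631 to 18357444, 30.8 kb) held 13 intronic regions and 1 at the promoter, with a median signal of 179, against 79.7 to 124 in the other 7 of the 8 largest clusters. The strongest had 415, with 160 in replicate 1 and 240 in replicate 2, and lay 20127 bp downstream of the start. Its neighbours, 18786 and 22003 bp downstream of the start, had 380, with 213 and 165, and 348, with 199 and 155. The sbb promoter had 269, with 156 and 101. Each replicate was the higher one in 7 of the 14 regions, 10 were in both own lists and 1 in neither.

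The last of the 8 lay around CG43245 on 3L (10734654 to 10786553, 51.9 kb, 16 regions), whose start was the nearest to every summit and the only one in the span. The strongest region, 4624 bp downstream of that start, had 332, with 165 in replicate 1 and 161 in replicate 2. The second had 244, with 129 and 109. The first summit of the cluster was 37271 bp upstream of the start. Replicate 1 was the higher one in 11 of the 15 regions with a candidate in both replicates.

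**Figure D3:**
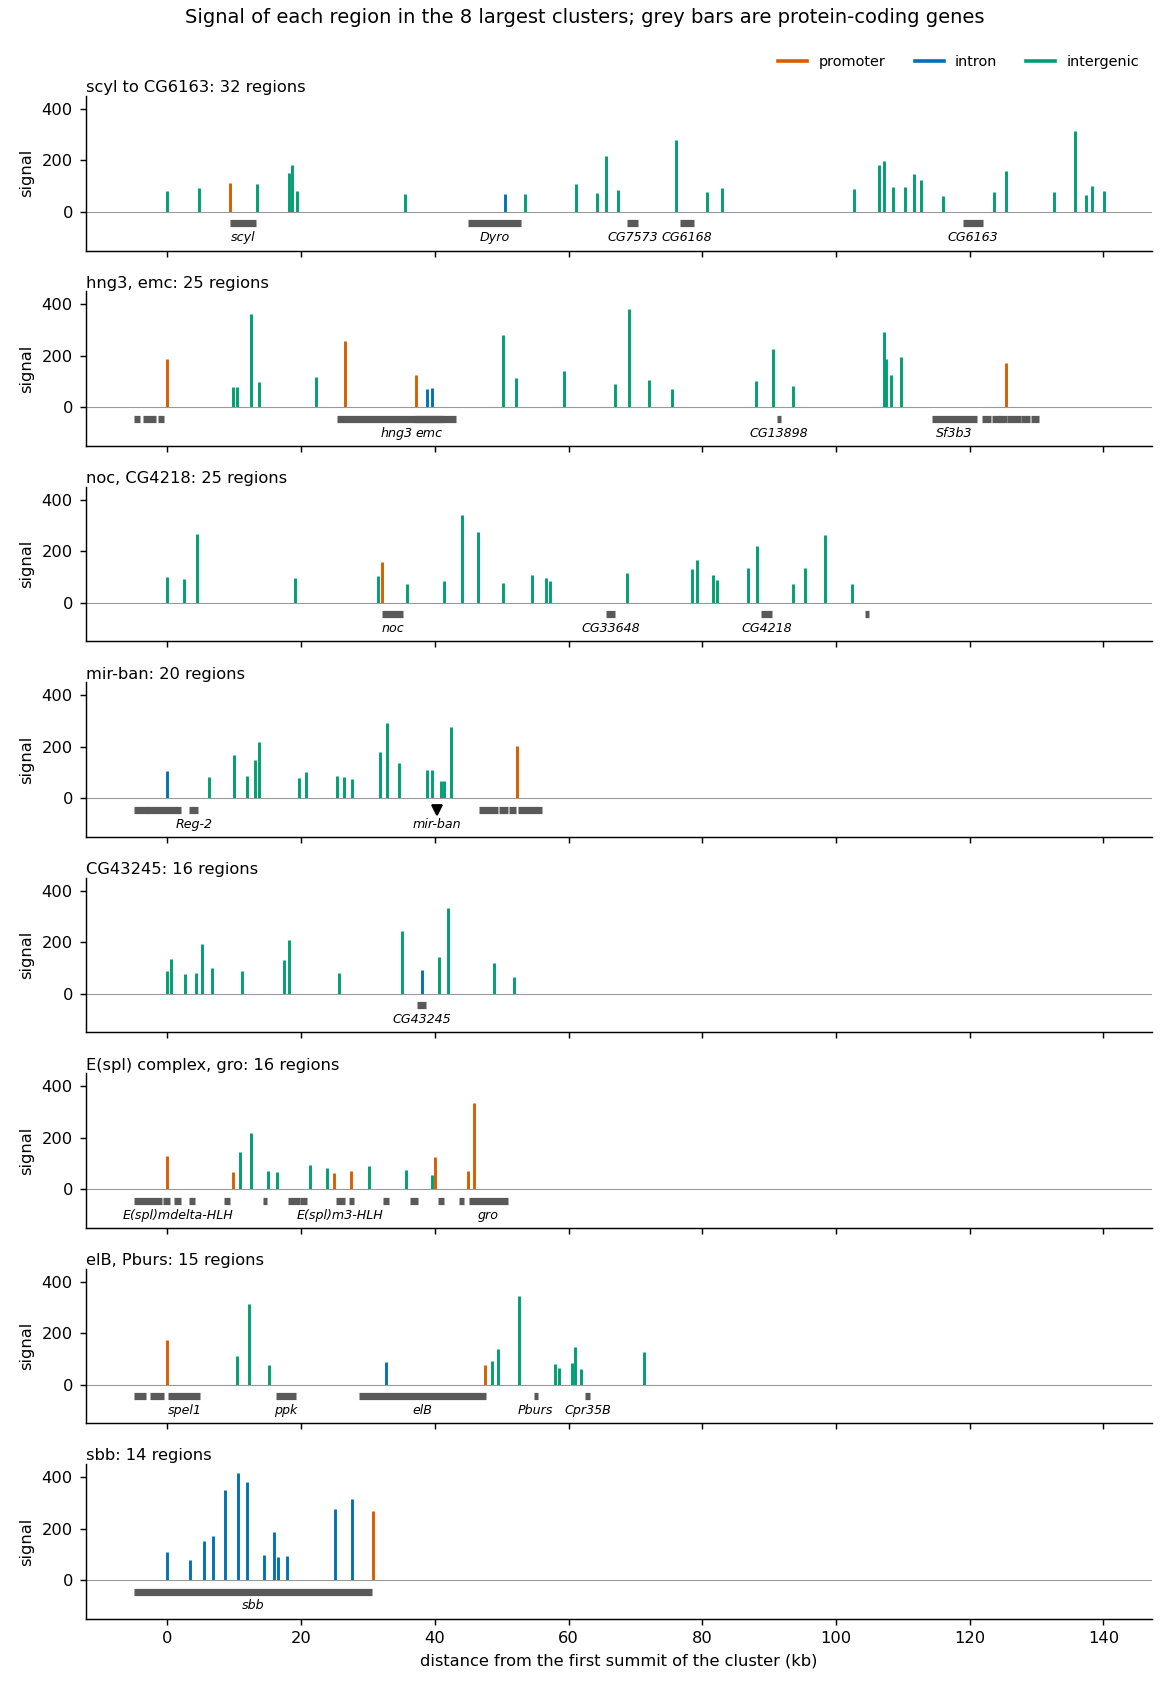
Position of each region in the 8 largest clusters, as distance from the first summit (horizontal, kb), with the authors' signal as the height of each line (vertical). Line colour gives promoter, intron or intergenic, grey bars are protein-coding genes and the triangle is mir-ban. In 7 of the 8 panels most lines stand between genes, while the sbb lines, up to 415, stand inside the gene.

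Another 17 clusters held 10 to 14 regions each. Developmental regulators among them were CHES-1-like, a forkhead factor with 13 regions in its body, brk, the repressor of Dpp target genes, whose cluster has all its 12 summits in the body of CG1677, chinmo, a BTB zinc finger protein, aop, an ETS-family repressor, ems, a homeobox gene of the head, and grn, a GATA factor. Signalling genes were Raf, the kinase of the receptor tyrosine kinase pathway, with 10 regions in its body, ptc, the Hedgehog receptor, puc, a phosphatase of the Jun kinase pathway, and Stat92E, the factor of the JAK/STAT pathway. Others were rols, an adaptor protein of myoblast fusion, Sema5c, a semaphorin, and pyd, a junction scaffold. The genes grn and puc share 1 of these clusters, and rols and Sema5c another. The remaining ones had CG7560, CG42808, PAN3, drongo, CG34460 and Ids as the most frequent nearest start. The highest signals in these clusters were 561 in the Raf cluster and 561 in the PAN3 cluster, and 541 in CHES-1-like.

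Clusters took different shapes. Of the 91 clusters with at least 6 regions, 43 had most summits in introns, 23 had most between genes and 7 had most at promoters. In 20 clusters every summit lay in the body of 1 shared gene, as in CHES-1-like, CG43658, rdx, Moe and shn, and in 5 clusters every summit was intergenic. There was no protein-coding start in the span of 9 of the 91. Within these clusters the highest signal was 4.13 times the lowest at the median, a spread that was not compared with groups of regions outside clusters. The spans as a whole were about as rich in genes as the genome, with 1.13 protein-coding genes starting per 10 kb, against 1.04 over the 6 chromosomes.

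The densest cluster of at least 6 regions was at scb, which encodes an integrin alpha subunit, with 6 summits in 3.79 kb on 2R (15247114 to 15250903), or 1.58 per kb. The limit of 6 regions was set after the values were seen. The strongest, 226 bp upstream of the scb start, had 228, with 122 in replicate 1 and 111 in replicate 2. All 6 regions passed in replicate 1 but only 1 in replicate 2, and the rule gave a cluster here in the replicate 1 list alone.

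The 5 strongest clustered regions stood beside regions of lower signal, which at ph-p were all above the clustered median of 107. At ph-p, a Polycomb-group gene on X, the region 496 bp upstream of the start had a signal of 1252, with 722 in replicate 1 and 548 in replicate 2. The other 6 regions of that cluster had 114 to 556. The region 2910 bp upstream of hll on 2L had 1168, with 520 and 656, beside 5 regions of 46.6 to 178. An intronic region of Tlk, a nuclear kinase on X, had 832, with 422 and 407, beside 5 regions of 83.8 to 155. The promoter region of CG1888 on 2R had 820, with 454 and 378, beside 7 of 48.5 to 122. The last, at the eIF6 promoter on 2R in the cluster that reaches ken, had 819, with 463 and 353, beside 4 of 81.2 to 171. None of the 5 was in one of the 8 largest clusters, and each was above every other region of its cluster in both replicates. The 5 were picked by their joint signal, which is close to the sum of the replicate signals. Their place above their neighbours in each replicate therefore largely follows from that choice.

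Clusters were found by the same rule in each replicate's own list, though fewer. Replicate 1's list of 2895 regions gave 207 clustered regions in 42 clusters, and replicate 2's list of 3560 gave 511 in 89. Of the 42 clusters of replicate 1, 37 overlapped a cluster of the joint list, and of the 89 of replicate 2, 70 did. Seen from the joint list, 37 of 179 clusters were met by a replicate 1 cluster, 69 by a replicate 2 cluster, 29 by both and 102 by neither. Larger clusters were met more often. Any overlap of spans counted, a longer span has more room for one, and the own lists come from the same 2 replicates. Of the 25 clusters with 10 or more regions, 15 were met in replicate 1, 23 in replicate 2 and 15 in both, while of the 30 single-region clusters none was met in either. Both own lists held fewer regions than the joint list of 4781.

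**Figure D4:**
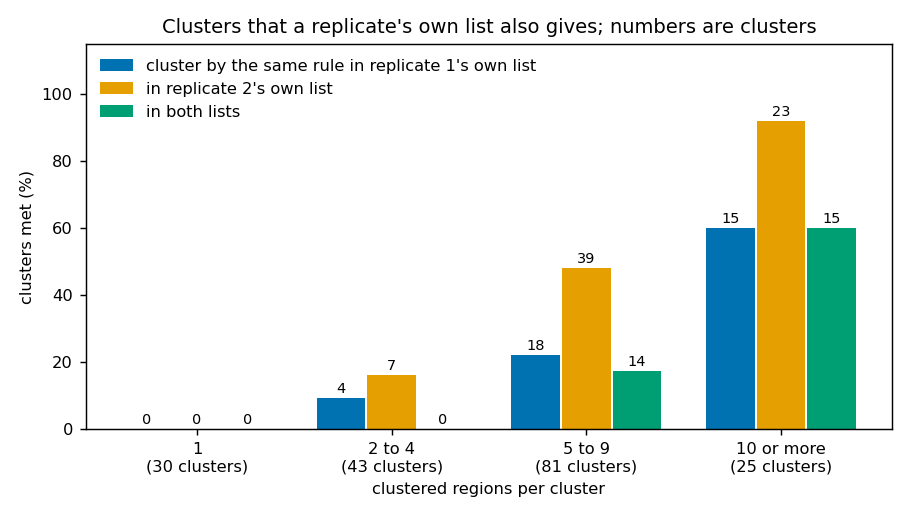
Share of the 179 clusters (vertical, percent) that overlap a cluster made by the same rule in replicate 1's own list, replicate 2's own list or both, by the number of clustered regions in the cluster (horizontal). Numbers on the bars are clusters. Of the 25 clusters with 10 or more regions 15, 23 and 15 were met, and of the 30 single-region clusters 0. Longer spans have more room for an overlap.

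Candidate peaks that did not overlap a region of the strict list had higher signals inside the cluster spans than elsewhere. In replicate 1 the median was 16.6 for 3042 candidates in the spans and 14.1 for 109760 elsewhere. In replicate 2 it was 16.5 for 3023 in the spans and 14 for 80847 elsewhere. Their density was 9.38 per 10 kb in the spans and 8.40 elsewhere in replicate 1, and 9.32 and 6.19 in replicate 2. The medians inside the spans were thus above those elsewhere in both replicates, and this was not tested. The spans were chosen from peaks of the same 2 replicates, so these values are not independent of the rule.

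Clustered and other regions had the TAATTA site at similar shares. Within 100 bp of the summit it was present in 202 clustered regions, 19.6% (17.3 to 22.2%), against 19.8% (18.5 to 21.1%) outside clusters and 19.7% of all regions. In windows of the same width centred 1000 bp to either side it was present in 13.3% (11.9 to 14.9%) for clustered regions and 12.6% (11.9 to 13.4%) for those outside. In dense clusters such a window can fall on another region, and 12.2% of them did, against 4.93% outside clusters. Without those windows, a step chosen after the data were seen, the flanking shares were 12.7% (11.3 to 14.4%) and 12.4% (11.7 to 13.2%).

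Other palindromes were built from the same bases. AATATT was in 24.1% of clustered summit windows and 16.5% of their flanks. TTTAAA was in 21.8% and 17.3%, AAATTT in 20.9% and 16.8%, and TTATAA in 13.7% and 10.2%. The ratio of summit to flank was 1.47 for TAATTA, 1.46 for AATATT and 1.25 for TTTAAA. The summit windows were slightly poorer in G and C, with 39.8% against 41.6% in the flanks. A TAAT core on either strand lay within 30 bp of 627 clustered summits, 60.9%, against 57.8% outside clusters. In the 8 largest clusters 33 of 163 regions had TAATTA within 100 bp, 20.2%, with 7 of 14 at sbb and 1 of 20 at the mir-ban cluster as the extremes. Of the 91 clusters of at least 6 regions 18 had none. A match is a stretch of letters and does not show that the protein bound it.

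Other sites searched on both strands showed few differences between clustered and other regions when all classes were pooled. ACAGTG was in 14.9% of clustered summit windows and 7.53% of their flanks, a ratio of 1.97, against 16.4% and 7.92% outside clusters, a ratio of 2.06. CAGGTAG, a site of the early embryonic factor Zelda, was in 20 clustered windows, 1.94% (1.26 to 2.98%), against 1.07% (0.790 to 1.46%) outside, and the flanks had 1.21% and 1.36%. These intervals overlap. GAGAG, the core of GAGA factor sites, was in 26.6% and 26.3%, GATAAG, which GATA factors bind, in 10.1% and 10.6%, and TAATCC, a Bicoid-type homeodomain site, in 5.73% and 4.99% of clustered and other summit windows. TATCGATA, the site of the promoter factor DREF, was in 1.46% and 1.80%, TGTTT in 65.2% and 66.2%, and TGACAG, a Homothorax-type site, in 7.0% and 6.71%.

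The share of genes in clusters differed between the gene lists. A gene was counted when it had a start in the span of a cluster or a clustered summit in its body, which held for 433 of 13945 protein-coding genes (3.11%). Of 47 matched signalling genes 11 were counted (23.4%), among them the Wnt feedback gene nkd, the ligand genes gbb, bnl, ths and Pvf3, the Dpp antagonist sog, brk, ptc and 3 E(spl) genes. Of 88 patterning factors 15 were counted (17.0%), among them bowl, sob, Poxn, Doc1, Doc2, EcR, ftz-f1, pnt, ush and Trl. Of 42 axon guidance and adhesion genes 6 were counted (14.3%), namely robo2, NetA, Sema5c, Fas3, kirre and pyd. The list of widely active chromatin and transcription genes had a share like that of axon guidance, with 3 of 19 counted (15.8%), namely His2Av, ph-p and Psc. Genes of the same cluster were counted separately, as with the 3 E(spl) genes and with Doc1 and Doc2. A start in a span was enough, so gbb, E(spl)m8-HLH and His2Av were counted without a summit in their body or a region nearest to them. All 4 shares were above that of all protein-coding genes, as were those of the homeobox, ribosomal protein and cytoskeleton lists given next.

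Of 64 homeobox genes outside the Hox complexes, 4 were counted (6.25%), namely hth, ems, al and NK7.1. Awh, also a homeobox gene, was placed in the list of patterning factors. It was not counted there, and the cluster near it was set aside. None of the 8 Hox genes was in a cluster, a list too short to read a low share from. Of 63 cytoplasmic ribosomal protein genes 3 were counted (4.76%), and of 22 cytoskeleton and muscle genes 1 (4.55%). Long genes have more room for summits, and length was not adjusted for, so these shares are a description and were not tested.

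**Figure D5:**
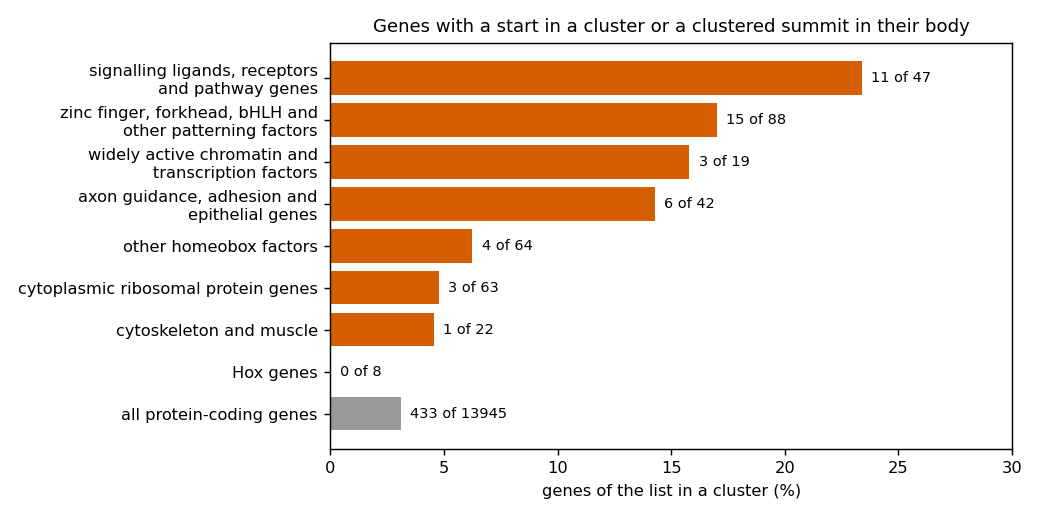
Genes of each list that had a transcript start in a cluster span or a clustered summit in their body (horizontal, percent of matched genes), with the counts beside the bars. Signalling genes had 23.4% and patterning factors 17.0%, while all protein-coding genes, in grey, had 3.11%.

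Of 260 microRNA genes in the RefSeq annotation 6 lay in cluster spans (2.31%), each in a different cluster, which is close to the 2.42% of the chromosomes that the spans cover. Beside mir-ban these were mir-8, mir-14, mir-375, mir-4941 and mir-4943. The nearest summit was 888 bp from mir-8, 902 bp from mir-14, 702 bp from mir-375, 4956 bp from mir-4941 and 2084 bp from mir-4943. The signal of the nearest region was 134 for mir-4941, with 36.2 in replicate 1 and 88.5 in replicate 2, and thus above the clustered median of 107. In the other 5 it was below that median, at 68.6 for mir-ban, with 58.3 and 43.7, at 79.3 for mir-4943, with 40.8 and 37.0, at 73.0 for mir-8, with 36.6 and 42.5, at 86.7 for mir-14, with 43.0 and 45.0, and at 78.4 for mir-375, with 38.0 and 32.5. The microRNA genes were looked up after other results were known.

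Regions just inside and just outside the rule had similar signals. The 388 clustered regions with exactly 5 neighbours had a median signal of 106, 21.1% at promoters (17.4 to 25.5%), 22.2% intergenic, 43.3% in both own lists and 20.1% with TAATTA within 100 bp. The 531 regions with exactly 4 neighbours had a median signal of 105, 27.3% at promoters (23.7 to 31.2%), 23.2% intergenic, 41.1% in both own lists and 18.6% with TAATTA. The intervals of the promoter shares overlap.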

How the data were processed

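Whole embryos with green fluorescent tagged Awh were used for ChIP-seq in 2 biological replicates of 1 group, and the deposited files are peak lists on the dm6 build, per the labels. Lists were ranked or thresholded by the irreproducible discovery rate, per the file headers, for each replicate alone and for both together. The signal of each peak is the authors' value. Aligner, caller and normalization were not given in the sources used here. Depth is unknown.

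Peaks on 6 chromosomes (5024 in the strict joint list, called conservative by the authors) were merged where they overlapped, and each region took its summit and signal from its strongest peak. The rule on neighbours, the classes and the sequence windows were computed in Python 3.11.15 with numpy 2.4.6, scipy 1.17.1, statsmodels 0.14.6 and matplotlib 3.10.9. The genome was RefSeq's copy of Release 6, the assembly behind dm6, and all 5024 peak ends fell within its chromosome lengths. Genes came from Ensembl release 115 (BDGP6.54). A region's signal in a replicate is the strongest candidate peak overlapping it by at least 1 bp. The rule and the site search were tested on simulated data.

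Shares carry 95% Wilson intervals. With 1 group and no control, no test was run. Named clusters are the 8 with most regions, with ties ordered by summed signal, and the densest. The 5 strongest regions are also named. The members, gene lists and sites were chosen with earlier results of these data known. Of the listed genes, lim1, h, Hr46, Dl, Unc-5 and DREF matched no single gene name. The alternatives were another list, each replicate alone, unmerged peaks, the stronger 50% of regions, 4 or 7 neighbours, and other distances and overlaps. The position of regions relative to 1 gene is not reported here.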

Additional observations from a re-analysis of the deposited data

How the results depend on the processing

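The count of clusters depends on how many regions enter. Applied to the list of replicate 2 or of replicate 1 alone, the rule gave 207 to 511 clustered regions in 42 to 89 clusters, against 1029 in 179. The stronger 50% of regions gave 121 in 25 clusters, a limit of 4 neighbours 1556 in 271 and of 7 neighbours 390 in 63. The promoter share of 20.1% was 12.6 to 19.0% in the replicates alone, 14.9% in the stronger 50% and 17.7% with 7 neighbours, and the width of a promoter set it at 12.7% for 200 bp and 29.1% for 1000 bp. The share with TAATTA was 17.9 to 20.4% in the replicates alone, 22.3% in the stronger 50%, 13.7% within 50 bp and 30.5% within 200 bp. The median signal was 97.1 in the optimal list and 160 in the stronger 50%, and 64.7 to 73.6 in the replicates' own lists, whose scale is each replicate's own. Of 40 alternative values, 18 stayed within 1.5 times a count or within the interval of a share or median. No paired analysis was possible because there is 1 group. Without control samples or read totals, neither background nor depth can be judged.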

Other observations

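The lowest signal of any clustered region, 4.36, was listed in the CG13917 gene (3L, 1587683 to 1588012), a region chosen after its value was seen. Its replicate signals were 113 and 57.1, the same values as those of the neighbouring region with a joint signal of 178, because both overlap the same candidate peak of each replicate. The cluster at CG13917 held 8 regions, all within the gene.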
